A study of Mus musculus with 12 samples.

Results

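Small leucine-rich proteoglycans are secreted matrix proteins built on a core of leucine-rich repeats. The 10 genes described here are Dcn, Bgn, Lum, Fmod, Ogn, Omd, Prelp, Aspn, Kera and Epyc. They were chosen by name, as every probe set of the deposited signal table that carries 1 of these symbols, which gave 21 of the 45037 non-control probe sets and 10 of the 20670 named genes. RNA was measured on 12 Affymetrix arrays from 2 mouse cell lines, 3T3-L1 preadipocytes, which are fibroblast-like cells able to become fat cells, and 10T1/2 mesenchymal stem cells. All cells had been transfected, either with a negative control siRNA (si-Ctr) or with an siRNA against Setdb1, Mbd1 or Mcaf1, and no untransfected array was analysed. In 3T3-L1, experiment A gave 1 si-Ctr and 1 si-Setdb1 array at 0 hr and 1 of each after 36 hr in differentiation medium with 0.25 µM dexamethasone, and experiment B gave 1 array each of si-Ctr, si-Setdb1, si-Mbd1 and si-Mcaf1 at 0 hr. In 10T1/2, 1 si-Ctr and 1 si-Setdb1 array were made at 0 hr and 1 of each after 48 hr in that medium. Each siRNA was a single reagent in an established line, so an effect of the reagent and an effect of its target cannot be told apart.

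These proteins bind fibrillar collagens and set the spacing and diameter of the fibrils, and most carry chondroitin, dermatan or keratan sulfate chains. Several also bind growth factors of the TGF-beta family or act on cell surface receptors. Fibroblasts and their relatives are a main source of decorin, biglycan and lumican, whereas epiphycan is known from growth plate cartilage, osteomodulin from bone and keratocan from the cornea.

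On the arrays labelled si-Setdb1, the members farthest below their controls were Lum, Epyc and Dcn in 10T1/2 and Prelp, Ogn and Omd in 3T3-L1. In 10T1/2, Lum, Epyc and Dcn read 9.13-fold, 8.74-fold and 7.31-fold lower than on the control arrays and Fmod 3.61-fold lower. In 3T3-L1, Prelp read 2.90-fold, Ogn 2.83-fold and Omd 2.63-fold lower, while Lum had no common direction. Omd was dim in that line, with signals of 6.9 to 51.4. These values are those of the brightest probe sets. In 10T1/2 the second probe sets of Ogn and Prelp were at -1.02 and -1.11 on the log2 scale. With the main processing, no member passed the adjusted threshold of 0.05 in any Setdb1 comparison. The difference between the lines did not pass its own test for any member either. Some alternative settings called 2 to 4 members over both lines and 1 or 2 for the difference between them. These settings called more genes in all, 606 to 871 over both lines against 138, and 14 to 26 against 0 for the difference. Between the lines, Epyc was 18.0-fold and Omd 15.8-fold higher in 10T1/2, and both differences passed.

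The 4 arrays of experiment B stood apart, with median signals of 14.9 to 18.0 against 11.2 to 12.1 on the other 8, and a Gapdh 3′/5′ signal ratio of 0.691 to 0.747 against 0.859 to 0.933. The main values were therefore quantile normalised, and differences below are on the log2(signal + 0.8) scale after that step, whereas signals are printed as deposited. The brightest Setdb1 probe set was not lower under the Setdb1 siRNA in every pair. It read 124.8 on si-Ctr and 149.9 on si-Setdb1 at 0 hr in experiment A, 179.8 and 154.7 at 36 hr, and 144.8 and 143 in experiment B, against 124.3 and 157.8 at 0 hr and 120.5 and 209 at 48 hr in 10T1/2, so the groups are named by their labels. Of its 2 dim probe sets, 1 was lower in all 5 pairs, at 0.4 to 9.9 against 1.6 to 24.4, and the other was higher in all 5, at 7.3 to 22.1 against 6 to 11.7. On the array labelled si-Mbd1, the brightest Mbd1 probe set read 144 against 306.2 on the control array of experiment B. On the array labelled si-Mcaf1, the brightest probe set of Atf7ip, the current symbol of Mcaf1, read 154.5 against 159.6. The summed signals of 5 fibroblast markers (Col1a1, Col1a2, Pdgfra, Pdgfrb and Thy1) were 12049.7 to 16219.8 on the 8 3T3-L1 arrays and 10771.2 to 11530 on the 4 10T1/2 arrays, and those of 3 endothelial markers did not exceed 25.6. In whole cultures, fewer cells of a type and less RNA per cell cannot be told apart.

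In the mouse genome (GRCm38.p6, RefSeq), 9 of the 10 genes lie in 3 groups of neighbours among the protein-coding genes. Dcn, Lum, Kera and Epyc follow each other on chromosome 10, Aspn, Omd and Ogn on chromosome 13, and Prelp and Fmod on chromosome 1, whereas Bgn stands alone on the X chromosome. The table of RefSeq promoters held 8 of the 10 genes, and those of Dcn and Lum were not used here. The 250 bases before the annotated start are given for Epyc, the member with a window that was farthest below its controls in 10T1/2 on the arrays labelled si-Setdb1, and for Prelp, Ogn and Omd, the 3 farthest below in 3T3-L1. Capitals mark CG dinucleotides, the sites of DNA methylation, because the Mbd1 protein binds methylated CG. The windows are chr10:97643818-97644067 on the plus strand for the first of 2 annotated Epyc starts, chr13:49607765-49608014 on the plus strand for Ogn, chr13:49582212-49582461 on the plus strand for Omd and chr1:133921402-133921651 on the minus strand for Prelp.
Epyc: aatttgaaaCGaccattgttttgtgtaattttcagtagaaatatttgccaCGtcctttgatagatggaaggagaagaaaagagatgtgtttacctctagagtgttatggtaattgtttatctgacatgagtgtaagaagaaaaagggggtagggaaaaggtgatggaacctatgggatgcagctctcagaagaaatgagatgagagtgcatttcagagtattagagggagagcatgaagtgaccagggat
Ogn: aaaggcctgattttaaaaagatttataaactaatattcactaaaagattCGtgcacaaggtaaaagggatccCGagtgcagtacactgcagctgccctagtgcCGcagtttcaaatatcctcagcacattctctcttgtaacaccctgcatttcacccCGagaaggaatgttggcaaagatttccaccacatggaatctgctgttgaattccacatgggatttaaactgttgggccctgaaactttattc
Omd: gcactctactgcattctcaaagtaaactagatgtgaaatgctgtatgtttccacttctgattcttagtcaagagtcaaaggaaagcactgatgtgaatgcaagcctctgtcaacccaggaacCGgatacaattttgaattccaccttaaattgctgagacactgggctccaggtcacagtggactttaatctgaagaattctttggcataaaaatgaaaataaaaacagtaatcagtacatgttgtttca
Prelp: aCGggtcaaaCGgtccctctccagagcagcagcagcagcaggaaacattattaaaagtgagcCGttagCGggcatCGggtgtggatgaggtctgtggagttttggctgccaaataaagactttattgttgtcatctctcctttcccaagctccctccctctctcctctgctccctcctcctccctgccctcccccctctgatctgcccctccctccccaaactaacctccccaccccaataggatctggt

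Between 0 and 7 CG dinucleotides lay in the members' windows. Prelp held 5, Ogn 4, Epyc 2 and Omd 1, and the other members had 7 (Bgn), 2 (Fmod), 2 (Aspn), 1 (Kera) and 0 (second Epyc start), whereas the median over all 32851 RefSeq promoter windows of that length was 6, with a 10th to 90th percentile of 1 to 25. The TATA box letters TATAAA, searched on both strands, were found at Ogn, in 2 matches that overlap, and at Aspn, against 12.37% of all windows. TGTTCT, 1 arm of the glucocorticoid receptor's palindromic site, was found at Bgn, against 16.08% of all windows. The AP-1 letters TGANTCA occurred at no member, against 6.75%, and the E-box CANNTG at Bgn, Fmod, Ogn, Aspn and the second Epyc start, against 66.22%. These matches describe letters in the window and do not show that a factor binds there.

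**Figure D1:**
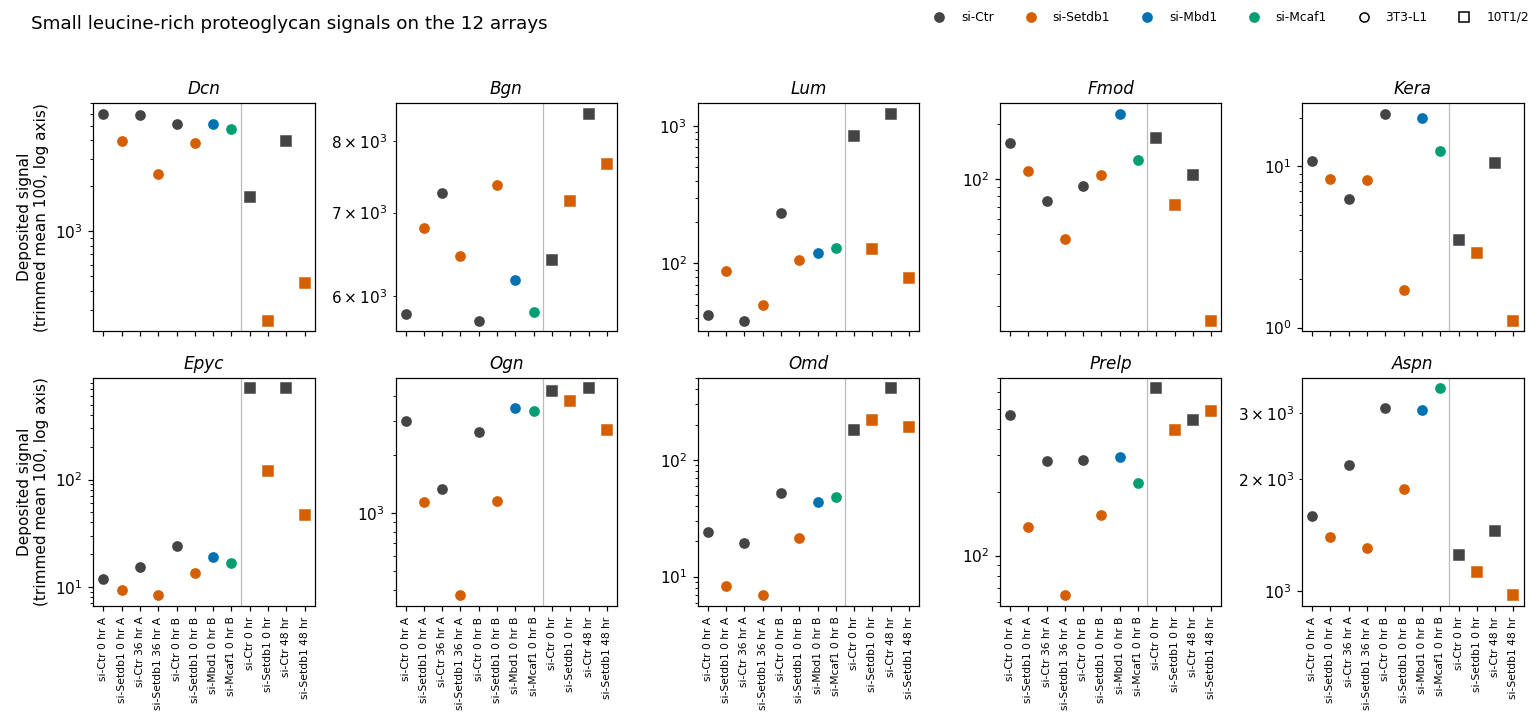
Deposited signal of the brightest probe set of each member on the 12 arrays, each point 1 array, on a log axis that differs between panels, with 3T3-L1 left of the grey line (circles) and 10T1/2 right of it (squares). Epyc read 713.1 and 709.9 on the 10T1/2 control arrays and at most 24.2 on any 3T3-L1 array, while Bgn read between 5726 and 8412.4 on all 12.

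Whether the Setdb1 siRNA altered the members was asked in 5 pairs of arrays, each holding the si-Ctr and the si-Setdb1 array of 1 line, time and experiment. Dim genes were filtered by their mean normalised log2 value, at a level that stands for a signal of about 7.67, and 12402 genes were tested. Of the 10 members 9 passed it, Kera being the exception, and none of the 9 was called (limma, Benjamini-Hochberg adjustment), against 1.11% of all genes tested. Of the 9, 6 had an unadjusted p under 0.05 (all but Bgn, Lum and Fmod), as had 22.3% of all genes. All 9 fitted differences were below 0, with a median of -1.02 against 0.0016 over all genes. Dcn, Epyc, Lum, Ogn and Prelp had a fitted difference of -1 or lower, which 0.637% of the genes tested had. In the 5 pairs, 4 members (Dcn, Ogn, Aspn and Epyc) were lower every time, as were 11.9% of all genes tested. Without the pair of experiment B, an alternative chosen after seeing the data, these were joined by Fmod, against 16.1% of genes.

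Decorin, biglycan and asporin form the first class of the family. Dcn, whose product coats collagen fibrils and binds TGF-beta, read 6001.1, 5833.2 and 5095.4 on the 3T3-L1 control arrays (0 hr A, 36 hr A and 0 hr B, the order used for this line throughout) and 3957.8, 2384.9 and 3859.2 on their partners labelled si-Setdb1. In 10T1/2 it read 1682.8 and 3979.5 on the control arrays (0 hr and 48 hr) and 253.8 and 452.6 on the partners. Thus each array labelled si-Setdb1 was below every control array of its own line, and the gap was wider in 10T1/2. The pair differences were -0.76, -1.18 and -0.56 in 3T3-L1 and -2.69 and -3.05 in 10T1/2, and the fitted difference was -1.65 ± 0.42 (SE, 5 pairs, limma adjusted p = 0.100). A second, dim Dcn probe set was also lower in all 5 pairs, with differences of -0.02 (experiment B) to -3.47 (10T1/2 at 48 hr). On that set the 3T3-L1 groups overlapped, with 22.2 on the 36 hr control array and 47.7 on the partner of experiment B.

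Aspn, whose product competes with decorin for collagen and binds TGF-beta, read 1588.8, 2184.8 and 3094.1 on the 3T3-L1 control arrays and 1397.3, 1302.4 and 1876.9 on the partners. In 10T1/2 the control arrays read 1246.8 and 1445.3 and the partners 1124.2 and 972.9. Each partner was below its own control, but the 3T3-L1 groups overlapped, and both arrays of experiment B were brighter than those of experiment A at 0 hr. The fitted difference was -0.50 ± 0.13 (SE, 5 pairs, limma adjusted p = 0.100). Its other probe set had a mean pair difference of -0.59 and was lower in every pair but that at 36 hr, where the difference was 0.005.

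Bgn, which binds collagen and can signal through toll-like receptors, stayed within 5726 to 8412.4 on all 12 arrays. It read 5801.9, 7253.8 and 5726 on the 3T3-L1 control arrays and 6800.7, 6457.2 and 7366.5 on the partners, and 6414.2 and 8412.4 against 7147.8 and 7656.7 in 10T1/2. The groups overlapped in both lines. The fitted difference was -0.01 ± 0.08 (SE, limma adjusted p = 0.943). Its SD over the 12 arrays, 0.11 on the log2 scale after quantile normalisation, lay at the 1.31 percentile of the genes tested. That step drew its values together. The signals of 5801.9 and 6800.7 at 0 hr in experiment A gave a normalised difference of 0.03. Those of 5726 on the control array of experiment B and 6173.4 on the si-Mbd1 array gave 0. By mean level Bgn lay at the 99.9 percentile of all genes, and whether that brightness limited its spread was not tested.

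Lumican, fibromodulin, PRELP, osteomodulin and keratocan form the second class. Lum, whose product organises collagen in cornea and skin, read 844.2 and 1234.3 on the 10T1/2 control arrays and 128.2 and 78.9 on the arrays labelled si-Setdb1. In 3T3-L1 the control arrays read 42.2, 38.1 and 231.3 and the partners 88, 49.9 and 105.3. The 10T1/2 groups were far apart, while in 3T3-L1 the partner was higher in both pairs of experiment A and lower in experiment B. Pair differences were -2.64 and -3.74 in 10T1/2 and 1.06, 0.38 and -1.20 in 3T3-L1. The fitted difference over both lines, -1.23 ± 0.73 (SE, limma adjusted p = 0.365), therefore averages unlike values.

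Fmod, whose product binds collagen and is abundant in tendon and cartilage, read 167.5 and 104.9 on the 10T1/2 control arrays and 72.2 and 16.6 on the partners. The 3T3-L1 control arrays read 156.9, 75.1 and 90.8 and the partners 110.1, 46.5 and 104.8. The groups did not overlap in 10T1/2 and overlapped in 3T3-L1. All 6 Fmod probe sets were lower in both 10T1/2 pairs, and all 6 were higher in the pair of experiment B. The fitted difference of the brightest was -0.90 ± 0.38 (SE, 5 pairs, limma adjusted p = 0.235).

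Prelp, whose product links collagen to heparan sulfate of basement membranes, read 465.5, 282.7 and 287 on the 3T3-L1 control arrays and 137.3, 64.5 and 156.8 on the partners, so that every partner was below every control array. In 10T1/2 the control arrays read 629.1 and 443.7 and the partners 398.1 and 490, and there the groups overlapped. The pair differences were -1.69, -2.02 and -0.90 in 3T3-L1 and -0.65 and 0.16 in 10T1/2, with a fitted difference of -1.02 ± 0.32 (SE, 5 pairs, limma adjusted p = 0.141). The second Prelp probe set was lower in all 5 pairs, with a mean difference of -1.75. On that set the 3T3-L1 groups overlapped, with 48.9 on the 36 hr control array and 57.5 on the partner of experiment B.

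Omd, whose product osteomodulin is found in mineralised tissue, read 24.1, 19.4 and 51.4 on the 3T3-L1 control arrays and 8.3, 6.9 and 21.6 on the partners. The partners of experiment A were thus near the filter limit. In 10T1/2 the control arrays read 178.8 and 409.9 and the partners 217.4 and 191.4. Each 3T3-L1 partner lay below its own control by 1.35 to 1.44 on the log2 scale, whereas the 10T1/2 differences were 0.28 and -1.02, and the groups overlapped in both lines. The fitted difference was -0.98 ± 0.27 (SE, 5 pairs, limma adjusted p = 0.114). Kera, a keratan sulfate carrier of the cornea, did not pass the filter and was not tested. It read 3.5 to 21.2 on the 5 control arrays of the pairs and 1.1 to 8.3 on the 5 partners.

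Epiphycan and osteoglycin belong to the third class. Epyc read 713.1 and 709.9 on the 10T1/2 control arrays and 118.9 and 46.6 on the partners, 2 groups that did not overlap. In 3T3-L1 it read 11.9, 15.2 and 24.2 on the control arrays and 9.4, 8.3 and 13.4 on the partners, signals near the filter limit. The pair differences were -2.51 and -3.74 in 10T1/2 and -0.31, -0.86 and -1.04 in 3T3-L1, and the fitted difference was -1.69 ± 0.51 (SE, 5 pairs, limma adjusted p = 0.135).

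Ogn, which encodes osteoglycin (mimecan), a matrix protein of bone, cornea and vessel wall, read 3000.5, 1330.5 and 2629.3 on the 3T3-L1 control arrays and 1139, 376.3 and 1160.9 on the partners. On this brightest probe set, every 3T3-L1 partner was below every control array. In 10T1/2 it read 4264.3 and 4410.4 on the control arrays and 3778.4 and 2667.7 on the partners, a smaller gap without overlap. The pair differences were -1.49, -1.75 and -1.26 in 3T3-L1 and -0.28 and -0.79 in 10T1/2. Its fitted difference, -1.11 ± 0.22 (SE, 5 pairs), had the lowest adjusted p of the members, 0.0733 (limma). The second Ogn probe set was lower in all 5 pairs as well, with a mean of -1.25. That set gave -1.38, -1.88 and -0.96 in 3T3-L1 and -0.60 and -1.45 in 10T1/2. Its 3T3-L1 groups overlapped, with 747.5 on the 36 hr control array and 1404.3 on the partner of experiment B.

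The exact 2-sided sign-flip permutation test over 5 pairs cannot give a p below 0.0625, the value that Dcn, Ogn, Aspn and Epyc had. With a pseudocount of 16 in place of 0.8, Dcn (limma adjusted p = 0.0455) and Ogn (0.0258) passed the threshold, and with a variance trend in the fit Dcn, Ogn, Omd and Aspn did (0.0293, 0.0132, 0.0474 and 0.0289). Over all 12402 genes these settings called 606 and 871, against 138 with the main processing. The range over all alternatives was 0.0132 to 0.756 for Ogn and 0.0293 to 0.735 for Dcn, the high ends coming from the fit without the pairs.

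**Figure D2:**
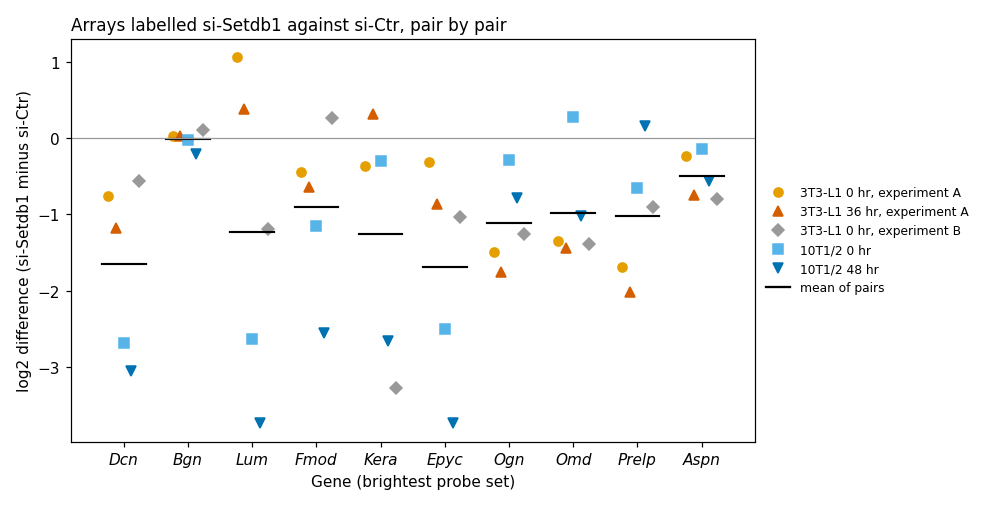
Difference between the array labelled si-Setdb1 and its si-Ctr partner in each of the 5 pairs, in log2 units after quantile normalisation, for the brightest probe set of each member, with bars at the mean of the pairs. The blue 10T1/2 points lie lowest for Dcn, Lum, Fmod and Epyc (-1.15 to -3.74) and the 3T3-L1 points lowest for Ogn, Omd and Prelp, while the points of Bgn lie at -0.21 to 0.11.

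An interaction term, the siRNA difference in 10T1/2 minus that in 3T3-L1, asked whether the lines differed. No member and no other gene passed (0% of 12402), while 7 of the 9 members and 8.35% of all genes had an unadjusted p under 0.05. The interaction was -3.27 ± 0.74 for Lum (SE, limma adjusted p = 0.430), -2.39 ± 0.44 for Epyc (0.329), -2.04 ± 0.26 for Dcn (0.240) and -1.58 ± 0.50 for Fmod (0.526). It had the other sign for Prelp (1.29 ± 0.43, limma adjusted p = 0.540), Omd (1.02 ± 0.40, 0.596) and Ogn (0.97 ± 0.25, 0.462). The second probe sets of Prelp and Ogn, fitted singly, gave 1.08 ± 1.13 and 0.38 ± 0.40 (SE, limma adjusted p = 0.879 and 0.878). With a pseudocount of 16 the interactions of Dcn and Epyc passed, each with a limma adjusted p of 0.0324, and with a variance trend that of Dcn did (0.0125). Over all genes these settings called 26 and 19.

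The difference within each line was taken from that interaction fit over all 5 pairs. Its SE and p therefore drew on the spread of both lines. Within 10T1/2 (2 pairs), 0 of 9 members and 0% of all genes were called. An unadjusted p under 0.05 was found for 5 members and 15.6% of all genes. The fitted differences were -3.19 ± 0.57 for Lum (SE, limma adjusted p = 0.135), -3.13 ± 0.34 for Epyc (0.0804), -2.87 ± 0.20 for Dcn (0.0657) and -1.85 ± 0.39 for Fmod (0.152). A fitted difference of -1 or lower was thus found in 4 of the 9 members and in 2.44% of all genes. The other 5 ranged from -0.53 (Ogn) to -0.12 (Bgn). All of these are values of the brightest probe sets. The second probe sets of Ogn and Prelp, fitted singly, were at -1.02 and -1.11 within 10T1/2 (limma adjusted p = 0.323 and 0.650). With a pseudocount of 16 or a variance trend, Dcn, Lum, Fmod and Epyc all passed, at limma adjusted p-values of 0.00242, 0.0237, 0.039 and 0.00409 for the former. Over all genes these settings called 183 and 277.

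Within 3T3-L1 (3 pairs, from the same fit over all 5), 0 of 9 members were called, against 0.00806% of all genes, which is 1 gene. An unadjusted p under 0.05 was found for 6 members and 17% of all genes. Prelp (-1.54 ± 0.27, SE, limma adjusted p = 0.127), Ogn (-1.50 ± 0.16, 0.0871) and Omd (-1.39 ± 0.25, 0.132) had fitted differences of -1 or lower, as did 1.19% of all genes. Dcn followed at -0.83 ± 0.16 (limma adjusted p = 0.137), and Lum was at 0.08 ± 0.47 (0.948). With a pseudocount of 16, Ogn (limma adjusted p = 0.00633), Prelp (0.0311) and Dcn (0.0488) passed, and with a variance trend Omd (0.0289) passed as well. Over all genes these settings called 183 and 297. At 0 hr alone, the 2 control arrays set against the 2 labelled si-Setdb1 called 0 members and 0.0161% of all genes, with an unadjusted p under 0.05 for 4 members and 5.41% of all genes. Ogn was then at -1.38 ± 0.20 (SE, limma adjusted p = 0.528), Omd at -1.37 ± 0.40 (0.858) and Prelp at -1.30 ± 0.30 (0.780). For the interaction of siRNA with dexamethasone medium, 0% of genes passed, 0 members and 7.16% of all genes had an unadjusted p under 0.05, and the lowest adjusted p of a member was 0.729 (Fmod, -1.15 ± 0.70, SE, limma).

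Markers of fat cells moved with the siRNA label. The summed signal of 5 measured fat cell markers (Adipoq, Fabp4, Cebpa, Pparg and Lpl) was 2745 to 4215.6 on the 3 control arrays of 3T3-L1 and 8300 to 16393.3 on the partners. In 10T1/2 it was 483.7 at 0 hr and 2672.3 at 48 hr on the control arrays and 1259 and 16872.9 on the partners. At 0 hr in 10T1/2, where the partner's sum was 1259, the differences of Dcn, Lum and Epyc were -2.69, -2.64 and -2.51, beside -3.05, -3.74 and -3.74 at 48 hr. Cartilage markers (Sox9, Col2a1 and Acan) summed to 3141.9 and 3861 on the 10T1/2 control arrays and to 1699.6 and 709.7 on the partners, against 150.5 to 312.7 on the 3T3-L1 arrays. None of the markers of either list was at 0 on any array, and their part in the members' differences was not tested.

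Of the genes around these proteoglycans, 3 were called in the 5 pairs, where 1.11% of all genes were. Of 18 collagen fibril genes tested, 1 was lower, Col11a1 (-1.35 ± 0.19, SE, limma adjusted p = 0.044), which encodes a collagen chain that starts thin fibrils. It was followed by Col12a1 (-0.68, 0.0717), Loxl3 (-0.37, 0.0814) and Col5a2 (-0.27, 0.196), and the list's median was -0.13. Of 15 receptors and growth factors that these proteins bind or act through, 1 was lower, Tlr4 (-1.11 ± 0.12, SE, limma adjusted p = 0.038), a receptor for biglycan. Egfr, a receptor that decorin binds, was at -0.53 (limma adjusted p = 0.0508), Tgfb1 at 0.56 (0.0770) and Met at -0.36 (0.104). Of 10 proteases that cut matrix proteoglycans or related substrates, 1 was higher, Adamts9 (1.15 ± 0.16, SE, limma adjusted p = 0.046). With any 1 of the 5 pairs left out, 0 genes passed, these 3 included.

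No gene passed among 21 tested for glycosaminoglycan chain synthesis (median -0.03), where B4galt7 of the linker region was at -0.51 (limma adjusted p = 0.0878), and the sulfotransferases Chst15 and Chst1 at 1.08 (0.140) and 1.34 (0.154). Nor did any of 6 other matrix proteoglycans, with a median of -0.12 and the lowest p for Prg4, lubricin (-0.99, limma adjusted p = 0.225). Only 2 of 6 other small leucine-rich proteins on the array passed the filter, Podn (0.36, limma adjusted p = 0.368) and Tsku (0.07, 0.709). Ecm2, the neighbour of Aspn, did not pass it, and read 73 and 82 on the 10T1/2 control arrays, 37.8 and 39.6 on the partners and at most 5.2 on the 3T3-L1 arrays.

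The response to dexamethasone medium was tested in 4 pairs, each holding 1 line and siRNA before and after treatment. These pairs share arrays with the siRNA comparison. No member was called, against 0.766% of all genes tested, and 2 members (Fmod and Ogn) had an unadjusted p under 0.05, as had 20.9% of all genes. Fmod was lower after treatment in all 4 pairs, as were 15.4% of all genes. It went from 156.9 to 75.1 (si-Ctr) and from 110.1 to 46.5 (si-Setdb1) in 3T3-L1, and from 167.5 to 104.9 and from 72.2 to 16.6 in 10T1/2. The fitted difference was -1.17 ± 0.24 (SE, 4 pairs, limma adjusted p = 0.112), and 5 of the 6 Fmod probe sets were lower in all 4 pairs. It passed with a pseudocount of 16 (limma adjusted p = 0.0315) and with a variance trend (0.0339). Over all genes these settings called 371 and 577, against 95 with the main processing.

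Ogn was also lower in all 4 pairs, from 3000.5 to 1330.5 (si-Ctr) and from 1139 to 376.3 (si-Setdb1) in 3T3-L1. In 10T1/2 it went from 3778.4 to 2667.7 in the si-Setdb1 pair, while in the si-Ctr pair the signals of 4264.3 and 4410.4 gave a normalised difference of -0.07. The fitted difference was -0.87 ± 0.27 (SE, 4 pairs, limma adjusted p = 0.180), and the second Ogn probe set was higher after treatment, by 0.26, in that si-Ctr pair. Prelp was at -0.47 ± 0.23 (limma adjusted p = 0.311) and was lower in 3 of 4 pairs.

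Dcn differed in direction between the lines. It was lower after treatment in both 3T3-L1 pairs (-0.34 and -0.77) and higher in both 10T1/2 pairs (1.19 and 0.83). The 10T1/2 control arrays read 1682.8 before and 3979.5 after, and those of 3T3-L1 6001.1 and 5833.2, close to each other before normalisation. Treatment lasted 36 hr in 3T3-L1 and 48 hr in 10T1/2, so line, experiment and time cannot be told apart. The interaction with line was 1.57 ± 0.26 (SE, unadjusted p = 0.00334 and adjusted p = 0.245 in limma), and no gene passed that test (0%), while 2 members and 9.97% of all genes had an unadjusted p under 0.05. It passed with a variance trend (limma adjusted p = 0.032) and with the filter at the 60th percentile (0.0498). Over all genes these settings called 70 and 69. The dim second Dcn probe set was lower after treatment in 3 of 4 pairs, including the si-Setdb1 pair of 10T1/2 (-2.41), so the direction in that pair rests on the bright probe set. Ogn had an interaction of 1.09 ± 0.26 (SE, limma adjusted p = 0.333). The remaining members had fitted differences after treatment of -0.28 (Epyc) to 0.14 (Omd). Omd read 178.8 before and 409.9 after treatment in the 10T1/2 control pair, beside differences of -0.29 to -0.13 in the other 3 pairs.

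No gene of the 6 lists was called after dexamethasone medium. Prg4 came closest, higher in all 4 pairs (2.77 ± 0.35, SE, limma adjusted p = 0.053), followed by Ccn4, a matricellular protein (-1.03 ± 0.14, 0.060). The summed fat cell markers were also higher after treatment, at 2672.3 against 483.7 on the 10T1/2 control arrays, and their part in the members' values was not tested.

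**Figure D3:**
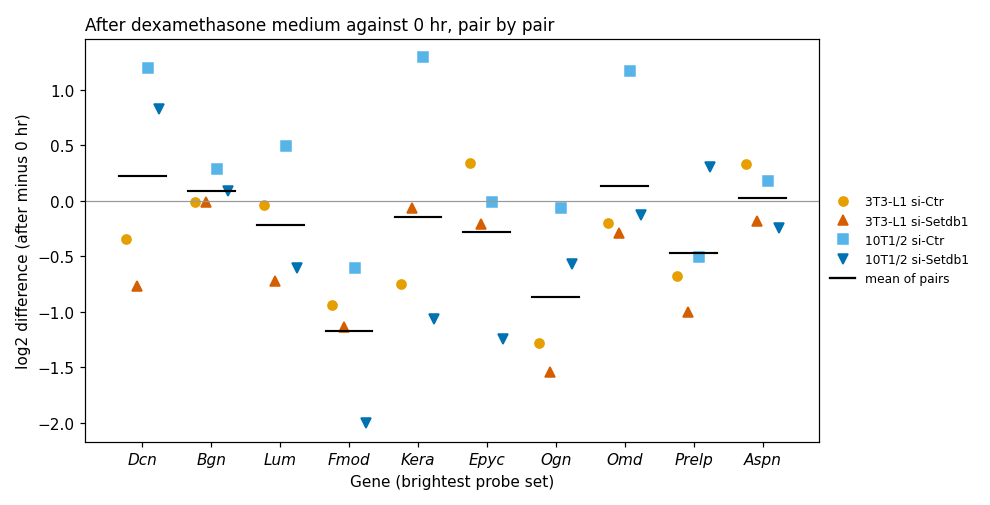
Difference between the array after dexamethasone medium and the array at 0 hr in each of the 4 pairs, in log2 units after quantile normalisation, with bars at the mean of the pairs. All 4 points of Fmod (-2.01 to -0.60) and of Ogn (-1.54 to -0.07) lie below 0, and for Dcn the 3T3-L1 points lie below and the 10T1/2 points above.

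The lines were compared in 4 pairs, each of 10T1/2 with 3T3-L1 of experiment A at the same siRNA and treatment state. Line, experiment and the 48 hr against 36 hr of treatment cannot be told apart here. Of the 9 members 5 were called, 3 higher and 2 lower in 10T1/2, against 29% of all genes tested, 14.2% higher and 14.8% lower. Epyc and Omd stood farthest apart. The 4 10T1/2 arrays read 46.6 to 713.1 for Epyc and the 4 3T3-L1 arrays 8.3 to 15.2, a difference of 4.17 ± 0.60 (SE, limma adjusted p = 0.00962, higher in 4 of 4 pairs). For Omd they read 178.8 to 409.9 against 6.9 to 24.1, a difference of 3.98 ± 0.33 (limma adjusted p = 0.00282, higher in 4 of 4). For neither gene did the lines overlap, and the arrays of experiment B, not in this test, read 13.4 to 24.2 for Epyc and 21.6 to 51.4 for Omd. Both passed under each alternative in which they were tested, the filter at the 60th percentile leaving both out.

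Ogn was 3.06-fold higher in 10T1/2 (1.62 ± 0.36, SE, limma adjusted p = 0.0288, higher in 4 of 4 pairs), with signals of 2667.7 to 4410.4 against 376.3 to 3000.5. Dcn was 4.47-fold lower (-2.16 ± 0.56, limma adjusted p = 0.0431, lower in 4 of 4), with signals of 253.8 to 3979.5 against 2384.9 to 6001.1. Aspn was 1.35-fold lower (-0.43 ± 0.09, limma adjusted p = 0.0261, lower in 4 of 4), with signals of 972.9 to 1445.3 against 1302.4 to 2184.8. The lines overlapped in signal for all 3 of these genes. Their calls were less stable than those of Epyc and Omd. Without any 1 of the 4 pairs Aspn missed the threshold (limma adjusted p = 0.0732 to 0.0922), and its second probe set had a mean of -0.16 with 2 pairs of 4 lower. Ogn missed it without the si-Setdb1 pair at 0 hr (limma adjusted p = 0.096), without the si-Ctr pair after treatment (0.0913) and without the si-Setdb1 pair after treatment (0.060). Dcn missed it without the si-Ctr pair at 0 hr (limma adjusted p = 0.117) and without either si-Setdb1 pair (0.0836 at 0 hr and 0.115 after treatment). Without the pair block the limma adjusted p was 0.0921 for Dcn, 0.0746 for Ogn and 0.148 for Aspn, and without the filter it was 0.108, 0.0815 and 0.107.

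The line differences are given by the siRNA that the pair carried. Lum was higher in 10T1/2 by 4.23 and 4.76 in the si-Ctr pairs and by 0.53 and 0.64 in the si-Setdb1 pairs, and its mean, 2.54 ± 0.88, did not pass (SE, limma adjusted p = 0.0899). Epyc was higher by 5.62 and 5.27 in the si-Ctr pairs and by 3.42 and 2.39 in the si-Setdb1 pairs. For Dcn the si-Ctr pairs gave -1.98 and -0.44 and the si-Setdb1 pairs -3.91 and -2.31. Ogn was higher by 0.46 and 1.68 in the si-Ctr pairs and by 1.67 and 2.65 in the si-Setdb1 pairs. These are the same arrays as in the siRNA by line interaction above and carry no further evidence for it. Prelp (1.34 ± 0.42, limma adjusted p = 0.0715), Bgn (0.19 ± 0.10, 0.212) and Fmod (-0.35 ± 0.34, 0.467) did not pass. Kera read 1.1 to 10.5 in 10T1/2 and 6.3 to 10.8 in experiment A of 3T3-L1.

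**Figure D4:**
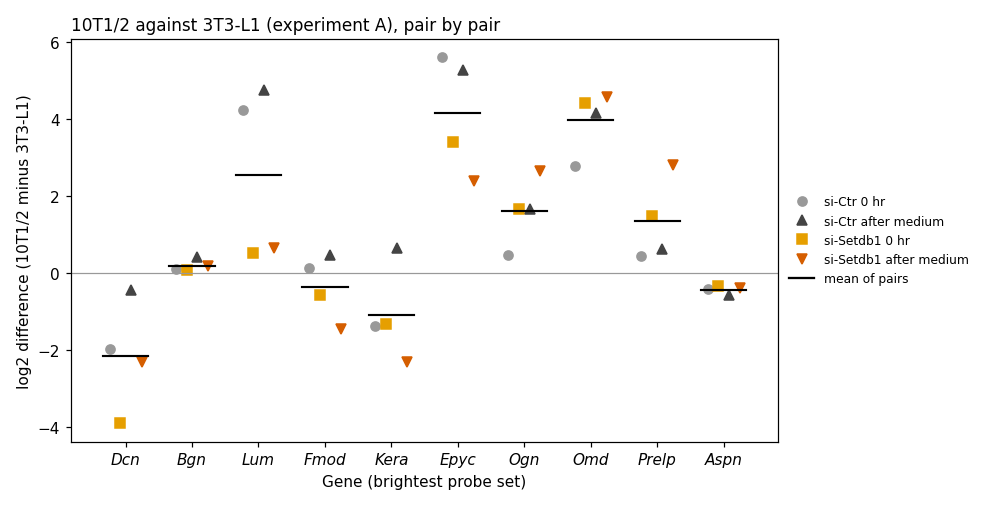
Difference between 10T1/2 and 3T3-L1 (experiment A) in each of the 4 pairs, in log2 units after quantile normalisation, with bars at the mean of the pairs. All points of Epyc (2.39 to 5.62) and Omd (2.78 to 4.58) lie far above 0, those of Dcn lie below 0, and those of Lum split by siRNA.

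Genes of the same pathways were called in shares to be read against the 29% of all genes called between the lines. Of 21 glycosaminoglycan genes, 4 were higher in 10T1/2, among them the sulfotransferase Chst15 (4.48 ± 0.42, SE, limma adjusted p = 0.00373) and the kinase Fam20b, which acts on the linker xylose (0.75, 0.00645), and 3 were lower, among them Chst2 (-1.996, 0.00512) and Chst14, which makes dermatan sulfate (-0.73, 0.00694). Of 6 other matrix proteoglycans, Cspg4 was higher (7.69 ± 0.33, limma adjusted p = 6.26e-04) and Agrn lower (-0.92, 0.0108). Of 18 collagen fibril genes, Col2a1, the main cartilage collagen, was higher (6.46 ± 0.56, limma adjusted p = 0.00321), and Col5a1 (-0.86, 0.00879) and Col1a1 (-0.54, 0.0303) were lower. Of 15 receptors and growth factors, 5 were higher, including Bmp4 (5.53, limma adjusted p = 9.37e-04), Tgfb2 (2.98, 0.00329) and Tgfbr2 (0.63, 0.00815), and 3 were lower, including Tgfb1 (-1.20, 0.00752). Of 10 proteases, Adamts4 was higher (0.89, limma adjusted p = 0.0128), and Adamts9 (-2.32, 0.00178) and Mmp3 (-3.75, 0.0294) were lower.

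The arrays labelled si-Mbd1 and si-Mcaf1 had no replicate, and each was set against the si-Ctr array of experiment B with no test. Their titles give 0 hr and another label gives 36 hr of dexamethasone, and the title was followed. On the si-Mbd1 array, 1 member differed by 1 or more on the log2 scale, against 3.79% of all genes. This was Fmod, which read 227.9 against 90.8 on the control array (1.46), or 1.01 above the mean of both 3T3-L1 control arrays at 0 hr, of which that of experiment A read 156.9. Lum read 119.8 against 231.3 (-0.997), but the control array of experiment A read 42.2. The other members read 5106.5 (Dcn), 6173.4 (Bgn), 3468.1 (Ogn), 43.2 (Omd), 296.1 (Prelp), 3061.9 (Aspn), 19.9 (Kera) and 18.9 (Epyc), and the 7 of them past the filter lay within -0.25 to 0.26 of the control.

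On the si-Mcaf1 array, 0 members differed by 1 or more, against 4.46% of all genes. Lum read 129.9 (-0.92), Epyc 16.5 (-0.66), Fmod 127 (0.51), Prelp 222.7 (-0.39) and Ogn 3353.8 (0.35). Dcn (4723.7), Bgn (5820.6), Omd (47.9) and Aspn (3505.1) lay within -0.18 to 0.16, and Kera read 12.5. Ogn, Omd and Prelp, which were lower on the array labelled si-Setdb1 of the same experiment (-1.26, -1.39 and -0.90), read 3468.1, 43.2 and 296.1 under si-Mbd1 and 3353.8, 47.9 and 222.7 under si-Mcaf1. All of these comparisons share 1 control array. In the control arrays at 0 hr, experiment B differed from A by 2.37 for Lum, 1.14 for Aspn and -0.91 for Fmod, sizes at or above most of these lone differences.

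The members also differed in how much they varied. Over the 12 arrays the SD on the log2 scale was 2.26 for Epyc, 1.85 for Omd, 1.52 for Dcn and 1.51 for Lum. The genes with the pattern most like Epyc over the 12 arrays were Wwp2, Col9a1 and Slc41a1 (Pearson r = 0.970, 0.965 and 0.965). Those given for Omd were Enpp1 and Apbb1 (0.975 and 0.965), and those most like Dcn were Smarcad1, Mat2b and Arsj (0.952, 0.952 and 0.951). These coefficients are descriptions, since the 12 arrays fall into 2 lines and share experiments.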

How the data were processed

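Per the labels, biotinylated cRNA made from total RNA was put on the arrays. What the authors deposited is 1 linear intensity (signal) per probe set and array, and the values show that each array had been scaled to a trimmed mean of 100. The software that made these intensities is not given in the sources used here. Columns of log2 ratios that the authors deposited were left aside. Control probe sets (64) were left out, and the symbols were those of the deposited table, updated through RefSeq.

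Intensities became log2(intensity + 0.8), the 10th percentile of all values being the pseudocount, and were quantile normalised, because the array medians differed by up to 0.648 on the log2 scale. A fold change understates that of dim genes. Each gene was read from its brightest probe set, and the dimmest 40% of genes were left out. With limma 3.58.1 (R 4.3.3), lmFit and eBayes were run over all 12402 genes with Benjamini-Hochberg adjustment and a threshold of 0.05. Each pair of arrays was a block, except for 3T3-L1 at 0 hr alone. Pairs shared line, time and experiment letter for the siRNA, line and siRNA for dexamethasone medium, and siRNA and treatment state for the lines. The experiment letters are in the labels, and over genes the difference between experiments B and A on control arrays correlated with that on arrays labelled si-Setdb1 (r = 0.426). The 10T1/2 arrays, which have no letter, were matched by time. No label says that the pairs came from separate cultures, so the p-values reflect only how far these arrays differ, which may be technical, and having 2 to 5 pairs limits the precision.

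The members, gene lists and tests were chosen with earlier results of these data known. All 10 members were named, with up to 4 genes of each list, those past the threshold first and then by p, and the 3 genes most correlated with each of the 3 most variable members, of which 1 is not reported here. The scripts were tested on simulated data. Alternatives were the scaling, pseudocount, filter, probe set, variance trend, block and single pairs or arrays left out. Promoter sequences came from RefSeq (GRCm38.p6).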

Additional observations from a re-analysis of the deposited data

Results flagged for a closer look

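On its bright probe set, Dcn was lower after dexamethasone medium in both 3T3-L1 pairs (-0.769 and -0.342) and higher in both 10T1/2 pairs (0.828 and 1.19). Every pair of one line thus moved against every pair of the other. The deposited signals behind -0.342, 6001.1 before and 5833.2 after, were close to each other. The dim second probe set was lower (-2.41) in the si-Setdb1 pair of 10T1/2. The interaction was 1.57, and its test did not pass (limma adjusted p = 0.245).

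On its brightest probe set, Bgn had opposite signs in the lines in 2 comparisons, both with differences near 0. Under the Setdb1 siRNA the 3T3-L1 pairs lay at 0.0271 to 0.108 and the 10T1/2 pairs at -0.212 to -0.0189, with an interaction of -0.17 (limma adjusted p = 0.838). After dexamethasone medium Bgn was slightly below 0 in both 3T3-L1 pairs (-0.01) and above it in both 10T1/2 pairs (0.09 and 0.29), and the interaction was 0.202 (limma adjusted p = 0.788). Neither test passed, and leaving the deposited scaling in place turned the sign of Bgn under the Setdb1 siRNA in 10T1/2. Its other 2 probe sets did not split by line under that siRNA. In 3T3-L1 they lay at -0.107 to 0.0354 and at -0.111 to 0.052. In 10T1/2 they lay at -0.087 to 0.065 and at -0.05 to -0.0141. For the medium, line and treatment time cannot be told apart.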

How the results depend on the processing

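Of 767 alternative values of the members' reported differences, 694 were rated the same and 44 passed the threshold where the main value had not. Another 18 missed it and 11 changed sign. For fitted values, the same meant direction and side of the threshold. On the si-Mbd1 and si-Mcaf1 arrays, for main sizes under 1, it meant only that the size stayed under 1. Changes of sign there are not among the 11, such as Lum under si-Mbd1, at -0.997 to 0.19 over the settings. In the 5 Setdb1 pairs the count of members called, 0, became 2 (Dcn and Ogn) with a pseudocount of 16, 3 (with Aspn) with the filter at the 60th percentile and 4 (with Aspn and Omd) with a variance trend. In the same order it became 2, 1 and 1 for the siRNA by line interaction, 3, 3 and 4 within 3T3-L1, 4, 3 and 4 within 10T1/2, and 1, 1 and 1 after dexamethasone medium (Fmod), and for its interaction with line 1 (Dcn) with the stricter filter and 1 with the trend. The filter at the 60th percentile leaves out Omd and Epyc, and fewer genes are tested under it (8268). In that order, the genes called in all were 606, 840 and 871 in the 5 pairs, against 138 with the main processing. They were 26, 14 and 19 for the siRNA by line interaction, 183, 265 and 297 within 3T3-L1, and 183, 247 and 277 within 10T1/2. After dexamethasone medium they were 371, 459 and 577, and for its interaction with line 69 (filter) and 70 (trend). In the line comparison, the 5 members called became 2 (Omd and Epyc) without a filter and 2 without the replicate block. With 1 pair left out they became 2 to 3. The genes called there went from 3601 to 1643, 2825 and 1783 to 2352. The causes were not tested.

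Bgn in the 5 pairs was at 0.089 with the deposited scaling and 0.040 with array medians subtracted, with -0.044 to 0.036 when 1 pair was left out, and within 10T1/2 at 0.010 with the deposited scaling. With 1 pair left out, Lum within 3T3-L1 ranged from -0.41 to 0.72, and Fmod between the lines from -0.63 to 0.010. After dexamethasone medium, Dcn was at -0.38 with the mean of its probe sets, and with 1 pair left out Dcn ranged from -0.094 to 0.56, Omd from -0.21 to 0.28 and Epyc from -0.49 to 0.042.

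Counts over all genes moved by more than 1.5 times. The Setdb1 calls, 138, ranged from 0 (no filter, or any pair left out) through 10 without the replicate block to 871 (trend). Within 3T3-L1 1 call became 0 to 297, at 0 hr 2 became 0 to 41, and within 10T1/2 0 became up to 277. The siRNA by line count, 0, reached 26 with a pseudocount of 16. The dexamethasone calls, 95, ranged from 0 to 577, with 29 without the replicate block, and its line interaction from 0 to 70. The line calls, 3601, ranged from 1643 to 4308 genes. With every probe set tested singly, 5591 of 27022 probe sets were called between the lines. At 0 hr alone, the fit with the replicate block called 0 members and 1 gene. Kera, and Epyc and Omd in 3T3-L1, lay near the signal below which differences are poorly measured. The Setdb1 difference of Omd within 3T3-L1 ranged from -1.42 to -0.76 over the settings.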
